A study of Mus musculus with 460 samples.

Results

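The genes described here are 9 transcription factor genes of epithelial-mesenchymal transition (EMT) and of the Runx family: Zeb1, Zeb2, Snai1, Snai2, Twist1, Twist2, Prrx1, Runx1 and Runx2. They were chosen by name, with earlier results of these data known, and all 9 were found among the 48440 genes of a single-cell RNA-seq table. The study profiled cells labelled as cancer-associated fibroblasts (CAFs, source "tCAFs") taken from lung adenocarcinoma of mice of a single tumour-prone strain. Each of the 460 samples was 1 cell, all carried the same strain, tissue and cell type labels, and no treatment, time, age or unaffected control was named. The labels named neither animals nor cultures, so the cells were handled as 1 sample, and no p-value or standard error was computed from them. The cells were divided only by their own counts: in 44.1% of the 460 cells the count of Rgs5, a pericyte marker, was above that of Pdgfra, a fibroblast receptor (Rgs5-led cells), and the other 55.9% made up the rest.

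Zeb1 and Zeb2 are zinc-finger homeobox repressors, Snai1 (Snail) and Snai2 (Slug) are zinc-finger repressors, and Twist1 and Twist2 are basic helix-loop-helix factors. In epithelial and carcinoma cells these 6 are known for silencing E-cadherin and other junction genes, and they are also known from mesenchymal cells. Prrx1 is a paired-related homeobox factor of limb and craniofacial mesenchyme, and Runx1 and Runx2 are runt-domain factors that bind DNA with the partner Cbfb, Runx1 being best known from blood formation and Runx2 from bone formation.

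Counts per cell ran from 25029 to 240496 with a median of 88701, and genes detected per cell from 4292 to 11939 with a median of 7705.5. Rgs5-led cells were shallower, with a median of 76944 counts, against 96654 in the rest. The label was checked against markers: Col1a1, Col1a2 and Col3a1, encoding fibrillar collagens, had a count in all 460 cells, as did Pdgfra. Of 8 pericyte markers, Pdgfrb and Rgs5 had a count in all 460 cells too. In the rest, 7 of the 8 had a count in 25% of cells or more. Ptprc, the leukocyte marker CD45, had a count in 11.3% of cells. Sftpc, the surfactant gene of alveolar type II cells, had one in 80.9%. Runs of neighbouring columns with low Sftpc held 27.6% of the cells, and these columns were also analysed apart from the others.

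Zeb2, Runx1, Prrx1 and Runx2 had counts in nearly every cell, Snai1, Zeb1 and Snai2 in most cells, and Twist1 and Twist2 in few. Levels are counts summed over cells and scaled to 1000000 (CPM), given with exact Poisson 95% intervals. Shares are given with exact 95% intervals by the Clopper-Pearson method, and neither kind of interval covers more than counting error. Zeb2 stood at 1374 CPM (1363 to 1385) and Runx1 at 819.7 CPM (811 to 828), and both had a count in all 460 cells. Prrx1 stood at 370.1 CPM (364.4 to 375.96) with a count in 98.9% of cells (97.5% to 99.6%). Runx2 stood at 140.95 CPM (137.4 to 144.6) with a count in 94.6% (92.1% to 96.5%). Each of these 4 genes was thus missed in at most a small share of cells. Snai1 reached 75.4 CPM (72.8 to 78.1) and a count in 88.5% of cells (85.2% to 91.2%). Zeb1 reached 68 CPM (65.6 to 70.6) and 76.5% of cells (72.4% to 80.3%). Snai2 reached 39.8 CPM (38 to 41.8) and 68.3% of cells (63.8% to 72.5%). Cells without a count of these 3 genes were common enough that depth bears on their shares. With each cell thinned to 56586 counts (46 shallower cells left out) the shares were 84.3% for Snai1, 72% for Zeb1 and 63.3% for Snai2.

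**Figure D1:**
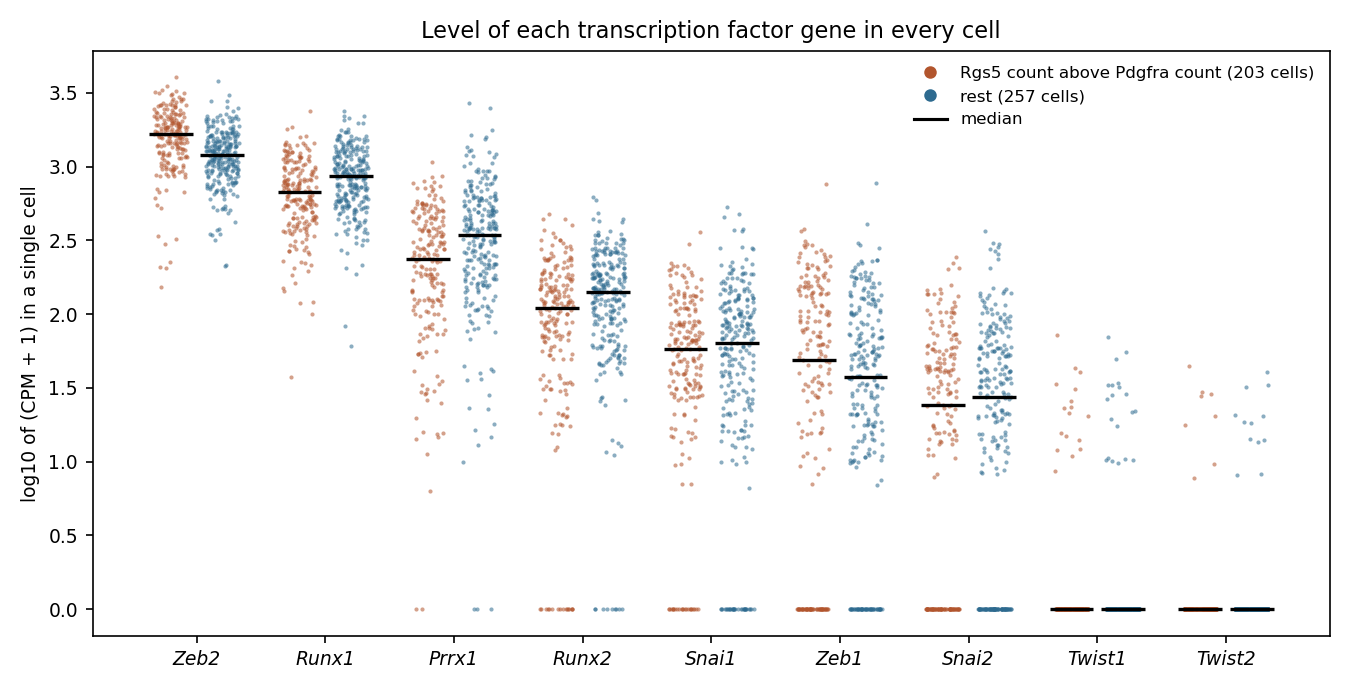
Level of the 9 genes in each of the 460 cells, as log10 of CPM plus 1 on the vertical axis, with 1 point per cell and the median as a black line. Rgs5-led cells, those with more Rgs5 than Pdgfra counts (44.1%, orange), stand left of the rest (55.9%, blue). The Zeb2 median is 1663 CPM in Rgs5-led cells and 1197 CPM in the rest, the Runx1 median is 671 CPM in Rgs5-led cells and 860 CPM in the rest, and the medians of Twist1 and Twist2 are 0 in both.

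Twist1 had 83 counts over 37 cells, a level of 1.95 CPM (1.55 to 2.41) and a share of 8.04% (5.73% to 10.9%). Twist2 had 41 counts over 20 cells, a level of 0.962 CPM (0.69 to 1.31) and a share of 4.35% (2.68% to 6.64%). To read these shares, 11 genes of unrelated tissues were counted in the same cells. Actn3, a fast skeletal muscle actinin, had a count in 6.3% (4.26% to 8.93%), and Myh6, the cardiac myosin heavy chain, in 5% (3.2% to 7.41%). Tnnt3, a fast skeletal troponin, had one in 4.13% (2.5% to 6.37%), and Alb, made by liver, in 0.652%. The other 7 of the 11 had no count in any cell. The intervals of Twist1 and Twist2 overlapped those of Actn3, Myh6 and Tnnt3 and lay above those of the other 8. These shares are not scaled by transcript length, and whether the Twist counts are background was not tested. A count of both Twist genes was seen in 1 cell, and 87.8% of cells had neither.

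**Figure D2:**
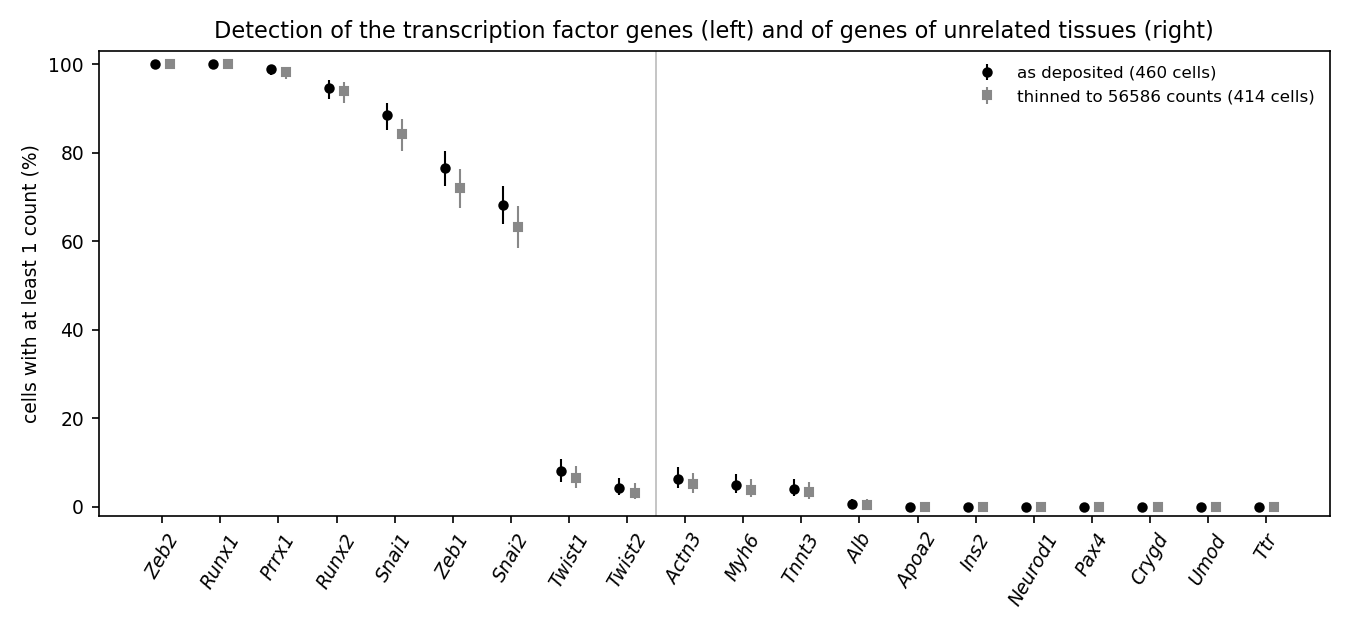
Share of cells with at least 1 count (vertical axis, %) of the 9 transcription factor genes (left of the line) and of 11 genes of unrelated tissues (right of it), in all 460 cells (circles) and after thinning to 56586 counts with 46 shallower cells left out (squares). Bars are 95% intervals by the Clopper-Pearson method. The first 7 transcription factor genes lie between 68.3% and 100%, while Twist1 at 8.04% and Twist2 at 4.35% lie near Actn3 at 6.3%, Myh6 at 5% and Tnnt3 at 4.13%.

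Longer transcripts can give more fragments, so the 9 genes were also compared per kilobase of merged exons (GENCODE vM21 on GRCm38, mm10). How reads became molecular barcode counts is not given, and whether these counts grow with length was not tested. Where a count marks a single molecule, the unscaled levels given above apply instead. Zeb2 (chr2:44983632-45117395, minus strand, 19942 exonic bases) had 68.9 CPM per kilobase. Runx1 (chr16:92601466-92826149, minus strand, 12025 exonic bases) had 68.2 CPM per kilobase. These neighbours at the top had overlapping counting intervals on this scale. Next came Snai1 (chr2:167538195-167542814, plus strand, 1621 exonic bases) with 46.5 CPM per kilobase, above Prrx1 on this scale. Prrx1 (chr1:163245119-163313710, minus strand, 11066 exonic bases) had 33.4 CPM per kilobase. Snai2 (chr16:14705852-14709385, plus strand, 2021 exonic bases) had 19.7 CPM per kilobase. These 3 were followed by the long Runx2 and Zeb1 genes. Runx2 (chr17:44495987-44814797, minus strand, 8837 exonic bases) had 16 CPM per kilobase, and Zeb1 (chr18:5591860-5775467, plus strand, 10266 exonic bases) had 6.63. Last came Twist1 (chr12:33957671-33959829, plus strand, 1628 exonic bases) with 1.2 CPM per kilobase, and Twist2 (chr1:91801461-91848028, plus strand, 3174 exonic bases) with 0.303. Merged exons hold the bases of every annotated isoform, so a gene whose cells use a short isoform is understated on this scale.

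The sources used here do not say whether counting used strand, and genes overlap most of these loci. Zeb2os, on the opposite strand of Zeb2, had 170 counts against 58555 of Zeb2. Supt3, opposite Runx2, had a count in 27.8% of cells, against 94.6% for Runx2, and the opposite-strand transcripts Runx2os1, Runx2os2 and Runx2os3 had a count in 10.7%, 15.7% and 1.74% of cells. Gm37644 and Gm26523, on the same strand as Prrx1, had a count in 25.9% and 23.3% of cells. No annotated gene overlapped Snai1, Snai2 or Twist1. Reads from bases that genes on opposite strands share cannot be told apart without strand, and strand does not resolve same-strand overlaps. Overlap is stated here for loci and not for exons. How far the counts of Zeb1, Zeb2, Twist2, Prrx1, Runx1 and Runx2 are affected is therefore not known.

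Within the Zeb, Runx and Snai pairs of paralogs, 1 gene led. Zeb2 was 10.4-fold above Zeb1 per kilobase of exon, and 20.2-fold above it in counts not scaled by length. Per kilobase it was the higher of the pair in 98.5% of cells (96.9% to 99.4%). Runx1 was 4.27-fold above Runx2 per kilobase and 5.82-fold in unscaled counts. Per kilobase it was the higher in 97% (94.9% to 98.3%). In both pairs no cell had the minor gene without the major one, which follows from the major gene having a count in every cell. Snai1 led Snai2 less evenly: it was 2.36-fold higher per kilobase and 1.89-fold in unscaled counts. Per kilobase it was the higher in 72% of cells (67.6% to 76%). Both Snai genes had a count in 61.1% of cells, Snai1 alone in 27.4%, Snai2 alone in 7.17% and neither in 4.35%. The same lead held in both sets of cells. Zeb2 was the higher in 98% of Rgs5-led cells and in 98.8% of the rest, and Snai1 in 71.4% of Rgs5-led cells and 72.4% of the rest. The remaining paralogs of these families were low: Prrx2 had 11.2 CPM and a count in 35.9% of cells, Runx3 2.63 CPM and 3.26%, and Snai3 0.217% of cells. Of these 3 only Prrx2 was detected in 10% of cells or more, and it stood at 7.25 CPM in Rgs5-led cells and 13.8 CPM in the rest, a fold of 0.527 (0.426 to 0.649).

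Counted together, a cell had a count of between 3 and 8 of the 9 genes. The commonest number was 7, in 45.9% of cells, followed by 6 in 35.9%, 5 in 10.4% and 8 in 5%, and no cell had all 9. The median was 6 in Rgs5-led cells and 7 in the rest, whose median depth was greater, and the part of depth in this was not tested.

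Spread between cells also differed among the genes. In thinned cells the Fano factor (variance over mean) of Prrx1 was 16.6, against a median of 7.1 over genes with a similar mean. Its single-cell levels ran from 0 to 2685 CPM around a median of 293.4. The Fano factor of Zeb1 was 5.88, against 3.77 over 1262 genes with a similar mean, and the 10% of cells with the highest Zeb1 counts held 37.5% of all its counts. Snai2 was close to its peers at 4.01 against 3.47, as were Snai1 at 3.94 against 3.85 and Runx2 at 4.55 against 4.43. For the abundant Zeb2 and Runx1 the values were below those of genes with a similar mean: 14.8 against 19.8 over 33 genes for Zeb2, and 11.8 against 13.4 over 96 genes for Runx1. Prrx1 and Zeb1 were thus the members with the most spread beyond genes of like abundance.

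Rgs5-led cells were then set against the rest. In these cells Zeb2 and Zeb1 were higher, and Prrx1, Runx2, Runx1, Snai2 and Snai1 were lower, but no member differed by 1.5-fold, and the Twist genes gave no usable difference. The division used Rgs5 and Pdgfra and none of the 9 genes. With 1 sample there was no test: each fold is a ratio of summed CPM with an exact interval for counting error only.

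Zeb2 in Rgs5-led cells ran from 150.7 to 4024 CPM with a median of 1663, and in the rest from 209.99 to 3775.5 CPM with a median of 1197. The ranges overlapped almost completely, and 75.9% of Rgs5-led cells lay above the median of the rest. Summed levels were 1595 CPM in Rgs5-led cells and 1228 CPM in the rest, a fold of 1.3 (1.28 to 1.32). Zeb2 was also lower in deeper cells and Rgs5-led cells were shallower, and the part of this in the fold was not separated. Zeb1 ran from 0 to 759 CPM with a median of 48.1 in Rgs5-led cells, and from 0 to 771 CPM with a median of 36.6 in the rest. Summed, it stood at 80.6 CPM in Rgs5-led cells and at 59.8 CPM in the rest, a fold of 1.35 (1.25 to 1.45). Its level and its detection went opposite ways: 71.9% of Rgs5-led cells (65.2% to 78%) had a count, against 80.2% of the rest (74.7% to 84.9%). After thinning, the shares were 69% of Rgs5-led cells (61.5% to 75.8%) and 74.1% of the rest (68.1% to 79.5%), with overlapping intervals, so no order is read from them. In the low-Sftpc columns alone the fold of Zeb1 was 1.05, and in the other columns 1.46.

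Prrx1 ran from 0 to 1066 CPM with a median of 233.9 in Rgs5-led cells, and from 0 to 2685 CPM with a median of 341.75 in the rest. Every cell above 1066 CPM thus belonged to the rest, although the ranges overlapped below that. Summed levels were 284.7 CPM in Rgs5-led cells and 426.6 CPM in the rest, a fold of 0.667 (0.645 to 0.69), or 1.498-fold lower, just short of the 1.5-fold limit. Runx1 ran from 36.2 to 2363 CPM with a median of 671 in Rgs5-led cells, and from 59.9 to 2397 CPM with a median of 860 in the rest. Only 30.5% of Rgs5-led cells lay above the median of the rest, and the fold was 0.803 (0.786 to 0.821). Runx2 ran from 0 to 479 CPM with a median of 109.3 in Rgs5-led cells, and from 0 to 622 CPM with a median of 139.1 in the rest. Its fold was 0.751 (0.711 to 0.792), and 36.9% of Rgs5-led cells lay above the median of the rest.

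The Snai genes differed least among those detected in most cells. Snai1 stood at 69.2 CPM in Rgs5-led cells (cells from 0 to 361.4, median 56.5) and at 79.5 CPM in the rest (from 0 to 533, median 62.4), a fold of 0.871 (0.81 to 0.936). Snai2 stood at 35.4 CPM in Rgs5-led cells (cells from 0 to 241.1, median 23) and at 42.8 CPM in the rest (from 0 to 363.9, median 26.5), a fold of 0.827 (0.747 to 0.914). Both sets overlapped throughout for either gene. In the low-Sftpc columns alone the fold of Snai2 was 0.6, against 0.917 in the other columns. Twist1 stood at 1.95 CPM in both sets, a fold of 0.999 (0.623 to 1.58). Twist2 stood at 0.944 CPM in Rgs5-led cells and at 0.974 CPM in the rest, a fold of 0.968 (0.483 to 1.89).

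Of the 9 genes, 7 were detected in 10% of cells or more and entered the count of folds, and 0 of these 7 were past 1.5-fold in either direction. Over the 13972 genes of the whole table that met the same detection limit, 20.1% were past it (9.07% higher and 11.1% lower in Rgs5-led cells). The median absolute fold was 1.3 over the 7 members and 1.18 over all 13972 genes. The median fold was 0.827 over the members and 1.01 over all genes. Prrx1 was the member nearest to the limit, and it passed where levels were averaged over single cells and where cells within 2-fold of equal Rgs5 and Pdgfra counts (70 cells, 31 of them Rgs5-led and 39 of the rest) were left out. In the low-Sftpc columns alone 2 of the 7 passed, Prrx1 with a fold of 0.627 and Snai2 with a fold of 0.6.

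**Figure D3:**
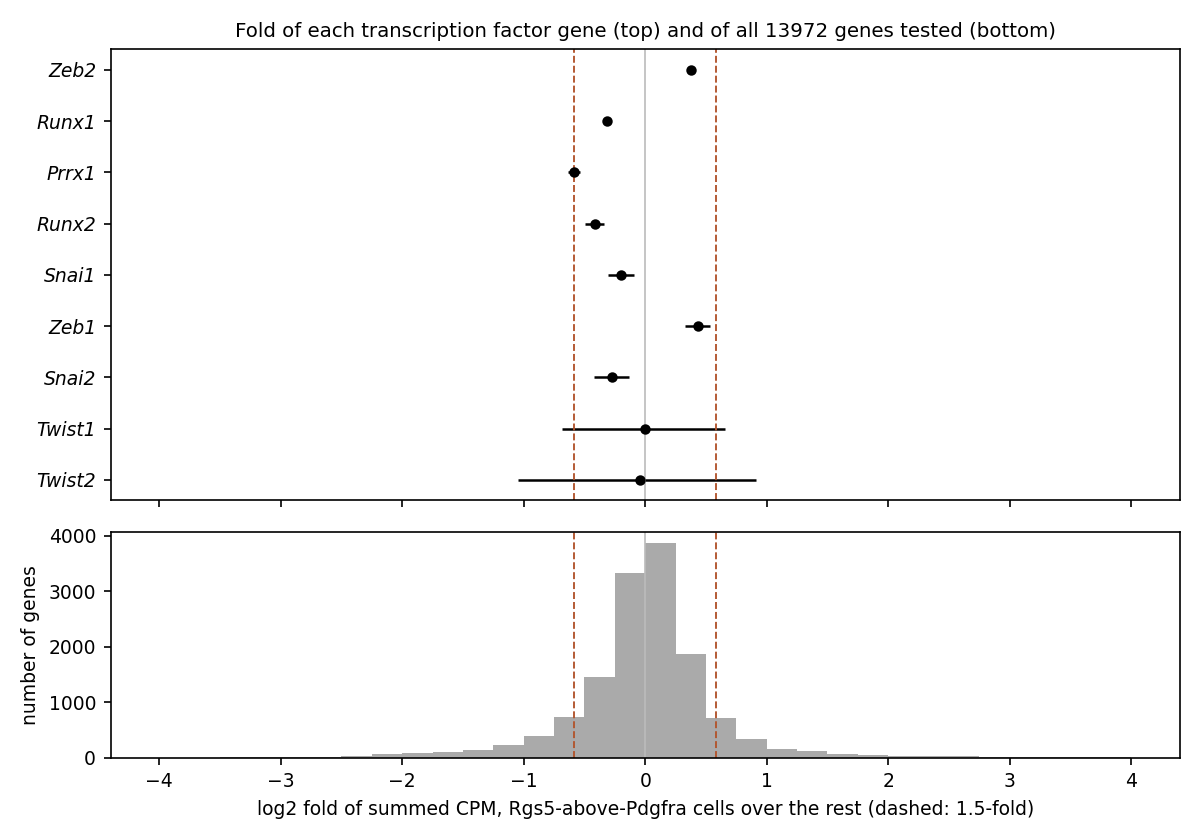
Fold of summed CPM in Rgs5-led cells over the rest, on a log2 axis, for the 9 genes (top, points with exact 95% intervals for counting error) and for all 13972 genes tested (bottom, number of genes per bin). Dashed lines mark 1.5-fold. Zeb2 at 1.3 and Zeb1 at 1.35 lie right of 1, Prrx1 at 0.667 lies at the lower line, and the intervals of Twist1 and Twist2 span 1.

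The same levels were followed along the ratio of Rgs5 to Pdgfra counts, in quintiles of 92 cells each. Zeb2 stood at 1196 CPM in the quintile with the lowest ratio, then at 1194, 1278, 1493 and 1818 CPM, so that its level was flat over the lower part of the ratio and highest in the top quintile. Prrx1 stood at 404.4, 476, 378.4, 291.1 and 271.1 CPM in the same order, with its highest level in the second quintile. Runx1 stood at 876, 876, 898, 705 and 709 CPM, so its summed level had 1 step, between the third and the fourth quintile. Its medians of single cells were 849, 816, 898, 696 and 612 CPM, lower again in the top quintile than in the fourth. Runx2 stood at 165.7, 160.4, 136.5, 121.6 and 110.3 CPM, lower in each quintile than in the one before, with counting intervals that overlapped between neighbours except between the second and the third. Zeb1 and Snai1 showed no steady order, with their highest levels in the fourth quintile (85.7 CPM) and the third (83.8 CPM). Across the 460 cells the Spearman correlation with the log2 ratio was 0.40 for Zeb2, -0.21 for Prrx1, -0.21 for Runx1 and -0.18 for Runx2, and between -0.07 and 0.03 for the other 5.

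**Figure D4:**
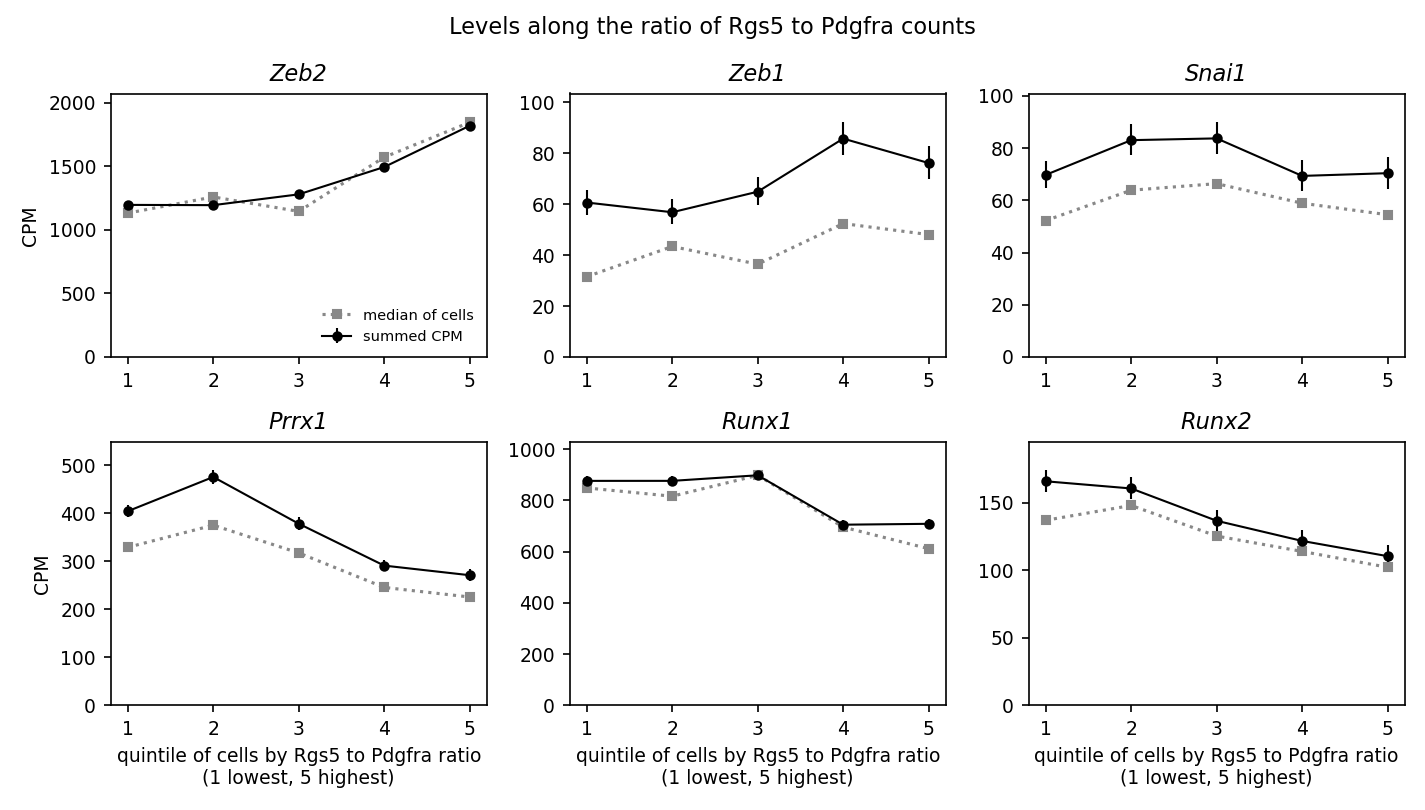
Level in CPM (vertical axis, from 0) of 6 genes in quintiles of the cells ordered by the ratio of Rgs5 to Pdgfra counts (horizontal axis, 92 cells per quintile). Circles are levels of summed counts with exact Poisson 95% intervals, and squares are medians of single cells. Zeb2 reaches 1818 CPM in the highest quintile, against 1196 CPM in the lowest, and Prrx1 stands at 271.1 CPM in the highest and 404.4 CPM in the lowest.

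Transcripts of other cell types moved with the division. The summed level of 9 immune markers was 484 CPM in Rgs5-led cells (cells from 0 to 10392) and 167.7 CPM in the rest (from 0 to 6838.5). The medians of single cells were close, at 79 CPM in Rgs5-led cells and 75.6 CPM in the rest, and none of the 9 markers was at 0 in either set. All 6 of the immune markers tested were past 1.5-fold higher in Rgs5-led cells, Lyz2 and Laptm5 among them. Over all genes tested, 9.07% were past the limit upward and 11.1% downward. The summed level of 7 epithelial markers was 1354 CPM in Rgs5-led cells (cells from 0 to 20741) and 836 CPM in the rest (from 0 to 23519). Their medians of single cells were closer, at 708.7 CPM in Rgs5-led cells and 601.8 CPM in the rest. Without the 10% of cells highest in immune markers the fold was 1.34 for Zeb2, 1.39 for Zeb1, 0.696 for Prrx1 and 0.8 for Runx1. Across cells the correlation of the immune sum was 0.02 with Zeb2 and -0.03 with Runx1. In the low-Sftpc columns the summed level of the epithelial markers was 109.7 CPM, against 1336 CPM in the other columns. Within them the fold was 1.36 for Zeb2, 0.627 for Prrx1, 0.823 for Runx1 and 0.735 for Runx2, each in the same direction as over all cells. All 8 pericyte markers were past 1.5-fold higher and 7 of 8 fibroblast markers past 1.5-fold lower in Rgs5-led cells, and Rgs5 and Pdgfra, which made the division, are among them. Of 5 endothelial markers tested, Kdr was past the limit upward and Pecam1 downward, and the 1 mesothelial marker tested, Upk1b, was not past it. The summed level of 4 mesothelial markers was nevertheless 94.7 CPM in Rgs5-led cells (cells from 0 to 7916). It was 32.5 CPM in the rest (from 0 to 632), and the median of single cells was 0 in both sets.

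Among themselves the 9 genes had correlations near 0 across cells. Spearman correlations were computed on log-transformed counts scaled to 10000 per cell, over 460 cells that share a source and differ in depth, and they are descriptions without p-values. Over the 21 pairs without Twist1 and Twist2, which few cells had a count of, the median was 0.03. The median over all 36 pairs was 0.01, the lowest -0.14 and the highest 0.20, and only the highest reached 0.2 in size. That pair was Runx1 with Runx2, at 0.07 in Rgs5-led cells, 0.25 in the rest and 0.17 after thinning. Prrx1 with Runx1 followed at 0.17, Snai1 with Runx2 at 0.14 and Zeb2 with Snai2 at 0.11. Zeb2 was inversely placed to Runx1 (-0.14) and to Prrx1 (-0.13). Its correlation with Runx1 was -0.10 within Rgs5-led cells and -0.03 within the rest, and with Prrx1 -0.09 within Rgs5-led cells and -0.07 within the rest. Zeb1 with Snai2 stood at -0.13 over all cells, at -0.13 in Rgs5-led cells and at -0.12 in the rest. The other paralog pairs stood near 0, with Zeb1 and Zeb2 at -0.01, Snai1 and Snai2 at 0.06, and Twist1 and Twist2 at -0.02. Counting noise lowers correlations of sparsely counted genes, so values near 0 for Twist1, Twist2, Snai2 and Zeb1 do not show that these are unrelated. Correlations of this size are not findings.

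**Figure D5:**
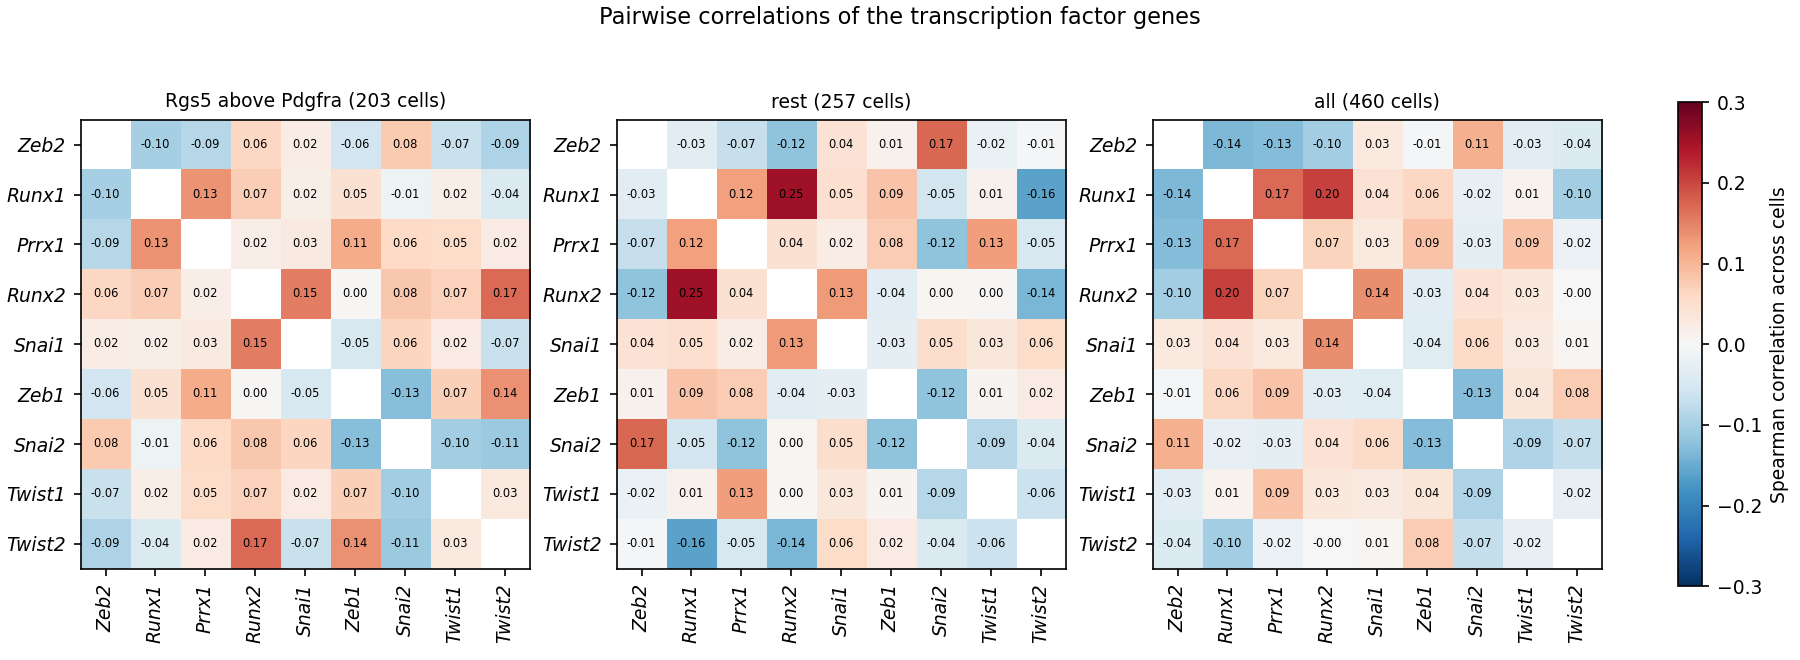
Spearman correlation across cells for each pair of the 9 genes, as colour and number, in Rgs5-led cells (left), the rest (middle) and all 460 cells (right). Runx1 with Runx2 is the strongest pair at 0.20 over all cells, and the median over the 36 pairs is 0.01.

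Some other genes were closer to a member than any member was. Among the 8988 genes detected in 25% of cells or more, 79 had a correlation of at least 0.3 with Zeb2 and 31 of at most -0.3. The 3 closest were Gucy1a3, a subunit of the nitric oxide receptor guanylate cyclase (0.48), Pdgfrb, the PDGF receptor of mural cells (0.47), and Ednra, an endothelin receptor (0.47). Within Rgs5-led cells these were 0.47, 0.35 and 0.41, and within the rest 0.23, 0.21 and 0.16. All 8 pericyte markers had a positive correlation with Zeb2, with a median of 0.38, which was 0.31 within Rgs5-led cells and 0.08 within the rest. Zeb2 itself was also lower in deeper cells, with a correlation of -0.30 with the total count. The part of this relation in the levels of Zeb2 along the quintiles was not separated. After thinning, Gucy1a3, Pdgfrb and Ednra stood at 0.47, 0.47 and 0.46. Thinning evens out sampling depth but leaves a relation to the original total count in place, so these values do not address it.

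Runx1 had 17 genes at 0.3 or above. The closest were Fgfr1, a fibroblast growth factor receptor (0.42), Skil, a repressor of Smad signalling (0.39), and Sulf1, an extracellular sulfatase acting on heparan sulfate (0.36). Fgfr1 had values of 0.33 within Rgs5-led cells and 0.38 within the rest. Prrx1 had 12 such genes, led by Fam198b (0.37), Igfbp7, a secreted binding protein of insulin-like growth factors (0.35), and Fst, encoding the activin antagonist follistatin (0.34). Runx2 had 1, Tmem2, a cell surface hyaluronidase (0.32). No gene reached 0.3 with Snai1 (highest 0.27), Snai2 (0.21), Twist2 (0.21), Twist1 (0.19) or Zeb1 (0.17). The 8 fibroblast markers all had a positive correlation with Runx1 (median 0.22) and with Prrx1 (median 0.19), and all had a negative one with Zeb2 (median -0.18). Pdgfra, which made the division, is among the 8. Within Rgs5-led cells the medians were 0.11 with Runx1, 0.20 with Prrx1 and -0.03 with Zeb2, and within the rest they were 0.15 with Runx1, 0.12 with Prrx1 and -0.03 with Zeb2. Single markers had the opposite sign within a set, among them Col3a1, Lum and Dpt with Runx1 in Rgs5-led cells, and Dcn in Rgs5-led cells and Pdgfra in the rest with Zeb2.

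Partners and regulators of these factors were counted from lists. Of 18 cofactor genes (E proteins, Id proteins, corepressors and others), 17 were tested, and 1 was past 1.5-fold higher and 0 lower in Rgs5-led cells. Over all genes, 9.07% were past the limit upward and 11.1% downward. The median fold was 1.05, beside 1.01 over all genes. Of this list, Tcf4, an E protein that pairs with Twist factors, stood at 974 CPM in Rgs5-led cells and 1150 CPM in the rest, and Id3, an inhibitor of E proteins, at 464 CPM in Rgs5-led cells and 408.2 CPM in the rest. Tcf12, another E protein, stood at 331.7 CPM in Rgs5-led cells and 313.7 CPM in the rest, and the corepressor Tle3 at 247.9 CPM in Rgs5-led cells and 213.9 CPM in the rest. The 1 gene past the limit, Id1, stood at 15.5 CPM in Rgs5-led cells and 6.08 CPM in the rest, and it is named after its values were seen. Cbfb, the partner of Runx factors, had 21.3 CPM and a count in 52.8% of cells, and is likewise named after its values were seen. Its correlation was 0.02 with Runx1 and 0.04 with Runx2.

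Of 9 other EMT-associated factors 6 were tested, and 3 were past 1.5-fold lower in Rgs5-led cells and 0 higher. Over all genes 11.1% were lower and 9.07% higher. The median fold over the 6 was 0.715. Tbx3, a T-box repressor, stood at 265.5 CPM in Rgs5-led cells and 524 CPM in the rest, Foxq1 at 23.8 CPM in Rgs5-led cells and 49.5 CPM in the rest, and Sox9 at 10.7 CPM in Rgs5-led cells and 19.3 CPM in the rest. The fourth named gene of this list, Sox4, stood at 30.7 CPM in Rgs5-led cells and 35.2 CPM in the rest.

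Among 16 genes of the epithelial state, which the repressors of this set are known to silence, 6 were tested. Of these, 5 were past 1.5-fold higher in Rgs5-led cells, beside 9.07% of all genes, with a median fold of 3.17. These are folds of summed counts, and whether a few cells carry them was not tested. Cdh1, encoding E-cadherin, stood at 59.6 CPM in Rgs5-led cells and 28 CPM in the rest, and Krt19 at 44.4 CPM in Rgs5-led cells and 7.29 CPM in the rest. Krt8 stood at 28.8 CPM in Rgs5-led cells and 6.86 CPM in the rest, and Krt18 at 18.9 CPM in Rgs5-led cells and 3.94 CPM in the rest. Cdh1, Krt8 and Krt18 also stand among the epithelial markers summed above, so their folds are not a separate result. Esrp2, a splicing regulator of epithelial cells named after its values were seen, was the other gene past the limit, at 8.02 CPM in Rgs5-led cells and 5.3 CPM in the rest. Cdh1 had a count in 3.15% of cells in the low-Sftpc columns and in 42% of the others, so its detection went with that of the surfactant gene across columns. The correlation of Cdh1 was -0.04 with Zeb2 and -0.09 with Zeb1. Over the 6 tested genes the median with Zeb2 was -0.05 over all cells, -0.14 within Rgs5-led cells and 0.03 within the rest. With Zeb1 the medians were -0.02, -0.05 and 0.004 in the same order.

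Of 13 genes of the mesenchymal state all were tested, and 6 were past 1.5-fold lower and 1 higher in Rgs5-led cells. Over all genes 11.1% were lower and 9.07% higher. The median fold over the 13 was 0.724. Fn1, encoding fibronectin, stood at 5873 CPM in Rgs5-led cells and 6416 CPM in the rest, and Sparc at 2591 CPM in Rgs5-led cells and 2626 CPM in the rest, neither past the limit. Col1a2 stood at 1711 CPM in Rgs5-led cells and 3130 CPM in the rest, and Col1a1 at 1740 CPM in Rgs5-led cells and 2850 CPM in the rest. Both were past the limit, and both also stand among the fibroblast markers, a class that the Pdgfra count was used to represent. The 1 gene past the limit upward was Cdh2, encoding N-cadherin, at 23 CPM in Rgs5-led cells and 4.68 CPM in the rest, named after its values were seen.

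Of 10 genes of transforming growth factor beta signalling, an inducer of several of these factors, 3 were past 1.5-fold lower in Rgs5-led cells and 0 higher. Over all genes 11.1% were lower and 9.07% higher. The median fold over the 10 was 0.895. Tgfbi, a secreted matrix protein, stood at 137.8 CPM in Rgs5-led cells and 604 CPM in the rest. Smad3, a signal transducer of the pathway, stood at 116.9 CPM in Rgs5-led cells and 330 CPM in the rest, and the inhibitory Smad7 at 71.4 CPM in Rgs5-led cells and 111.4 CPM in the rest. Smad3 and Smad7 are named after their values were seen. The receptor Tgfbr2 (644 CPM in Rgs5-led cells and 811 CPM in the rest) and the ligand Tgfb1 (318.8 CPM in Rgs5-led cells and 301.4 CPM in the rest) did not pass. Smad3 had the strongest inverse correlation with Zeb2 of the genes tested in these lists, at -0.35 over the 460 cells, -0.29 within Rgs5-led cells and -0.09 within the rest.

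Of 12 genes of the bone programme known for Runx2, 4 were tested and 3 were past 1.5-fold lower in Rgs5-led cells, beside 11.1% of all genes. The median fold over the 4 was 0.364. Ibsp, encoding bone sialoprotein, stood at 62.2 CPM in Rgs5-led cells and 581 CPM in the rest, and had a count in 85.4% of cells. Mmp13, a collagenase, stood at 2.06 CPM in Rgs5-led cells and 26.3 CPM in the rest. Col10a1, named after its values were seen, stood at 1.89 CPM in Rgs5-led cells and 3.04 CPM in the rest. Spp1, encoding osteopontin, was not past the limit, at 196.5 CPM in Rgs5-led cells and 159.2 CPM in the rest. Msx2 and Bglap2 had no count in any cell, and Sp7, encoding osterix, had one in 2.17%, all 3 named after their values were seen. The correlation of Runx2 was 0.08 with Ibsp, and its median over the 4 genes was 0.0028. Of 8 genes of the blood programme known for Runx1, only Gata2 was tested, with 5.6 CPM in Rgs5-led cells and 5.85 CPM in the rest. Spi1, of the same list, had a count in 3.48% of cells.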

How the data were processed

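Each of 460 cells gave 1 column of whole-number molecular barcode counts for 48440 genes, used as deposited, from libraries made with sonication and ligation per the labels. STAR, HTSeq and mm10 are named in the submitters' processing notes. How reads became counts, and whether strand was used, is not given in the sources used here. Cells were kept without a filter or a doublet caller, no 2 columns were identical, and where a symbol was repeated (119 symbols) the entry with the most counts stood for it. The 9 genes and all lists were chosen with earlier results of these data known. Rgs5 was above Pdgfra in 203 cells and not in 257. Thinning kept 414 cells (171 and 243), and the low-Sftpc columns held 127 cells, the others 333. Levels are summed counts scaled to 1000000. Folds are ratios of these, with an exact binomial interval, and 1.5-fold was set as the limit, with genes in at least 10% of cells as background. Correlations used Spearman's coefficient on log counts. All 9 genes are named, up to 4 genes per list in order of summed counts, not scaled by length, and per member the 3 closest genes with a correlation of at least 0.3. Genes named outside this rule are marked. Some listed genes and the strain's genotype are not reported here. Scripts were tested on simulated data and run in Python 3.11.15, numpy 2.4.6, scipy 1.17.1 and pandas 2.3.3. Alternatives changed the summing, limit, split, depth, scaling, gene filter and the cells left out. Gene models came from GENCODE vM21.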

Additional observations from a re-analysis of the deposited data

How the results depend on the processing

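The count of members past 1.5-fold, 0 of 7, was 1 (Prrx1) with means of single-cell CPM, 1 (Prrx1) with cells within 2-fold of equal Rgs5 and Pdgfra counts left out, and 2 (Snai2 and Prrx1) in the low-Sftpc columns alone. It was 0 under the other 8 alternatives. The share of all genes past the limit was 9.24% at 2-fold, 30.5% in the low-Sftpc columns alone and 36.5% with genes in at least 1% of cells, and otherwise 20.1% to 23.8%. Over 9 alternatives the fold ran from 1.28 to 1.39 for Zeb2, 1.05 to 1.46 for Zeb1, 0.626 to 0.702 for Prrx1, 0.787 to 0.823 for Runx1, 0.713 to 0.785 for Runx2, 0.788 to 0.933 for Snai1 and 0.6 to 0.917 for Snai2, none turning direction. The fold ran from 0.602 to 6.01 for Twist1 and from 0.225 to 1.25 for Twist2. The direction turned in 4 of 9 for Twist1 and 3 of 9 for Twist2. The median correlation of pairs ran from -0.02 to 0.03. Leaving out cells with a Ptprc count was chosen after seeing the data. The cause of these shifts was not tested. No paired analysis was possible because the labels give 1 group with no replicate numbers shared between groups. With 1 sample, spread between animals is unknown, and the Twist shares overlap those of 3 of 11 unrelated genes and lie above the other 8.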

Other observations

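Runx3, the third Runx paralog and known from lymphocytes, had a count in 15 cells, 9 of them Rgs5-led. Of these 15 cells, 3 had a count of Ptprc (20%, 4.33% to 48.1%) and 2 of Cd3e, a T cell receptor component named after its values were seen, against 49 (11%, 8.26% to 14.3%) and 7 (1.57%) of the other cells. The median Runx1 level was 1000.2 CPM in cells with a Runx3 count and 749 CPM in the others, and the median of Pdgfrb was 2472 CPM in cells with a Runx3 count and 2764 CPM in the others. Snai1 stood at 91.1 CPM in the cells of the low-Sftpc columns (85.3 to 97.1) and at 70.5 CPM in the other columns (67.6 to 73.4), a ratio of 1.29 (1.2 to 1.4), while for the other 6 members detected in over 10% of cells the ratio lay between 0.875 and 1.09.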
